A study of Mus musculus with 16 samples.

Results

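Ruboxistaurin (RBX), a small-molecule inhibitor of protein kinase C beta, was compared with no drug in the aorta of non-diabetic mice. The comparison used the 4 arrays whose titles name non-diabetic mice on high fat diet with RBX and the 4 whose titles name mice on the same diet without it, 8 of the 16 arrays in the series. The other 8 arrays held diabetic mice with and without RBX, and serve here to set the drug effect against its counterpart in diabetes. All 16 mice lacked apolipoprotein E (ApoE-/-), ate a high fat diet for 10 weeks from 8 weeks of age, and were 18 weeks old when the whole aorta was taken, 1 array per mouse. The RBX groups received the drug with that diet (the sources used here do not give its dose). Streptozotocin, which destroys pancreatic beta cells, was given at 6 weeks of age to the diabetic mice. Every group thus carries both the gene disruption and the diet, and mice on another diet or with apolipoprotein E were not analysed here.

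Protein kinase C beta is a serine and threonine kinase switched on by diacylglycerol and calcium. In vascular cells it relays signals from growth factor and vasoconstrictor receptors to contraction, adhesion molecule expression and the oxidase enzymes, and it has been studied mainly in diabetes, where glucose raises diacylglycerol. The wall measured here has a media of contractile smooth muscle and elastic fibres, an endothelial lining, and an adventitia of fibroblasts, resident macrophages and fat, with foam cells of macrophage origin in the plaques.

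The tissue label was checked against markers. All 26 contractile smooth muscle genes on the array lay above the signal filter described below. Acta2, smooth muscle alpha-actin, measured 152844, 150794, 193167 and 166811 in the mice without RBX, while the filter stood at 383. Of 26 cardiac and skeletal muscle genes, 4 passed that filter.

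The 2 groups differed in the array controls before any gene was considered. The cre control, a bacteriophage transcript added at hybridisation in the same amount to each array, measured 17.26, 17.30, 17.93 and 17.49 on the log2 scale without RBX and 18.24, 18.51, 18.82 and 19.13 with it. No array of one group reached the other, and the difference of 1.18 had the smallest p that an exact permutation test of 4 against 4 can give (two-sided p = 0.0286, adjusted p = 0.0393 over 11 measures). The bacterial spike-in controls bioB, bioC and bioD were higher by 1.41, 1.37 and 1.53 with the same exact p. The ratio of the 3' over the 5' Actb probe set, in log2, rises when RNA is shorter or labelling stops early, and was 1.04 ± 0.20 without RBX and 2.08 ± 0.39 with it (SD, n = 4, exact permutation p = 0.0286), again without overlap. That of Gapdh was 0.13 ± 0.11 and 0.31 ± 0.19 (SD, n = 4, exact permutation p = 0.2). The median log2 signal over all probe sets was 0.29 higher with RBX, the SD of log2 signal 0.21 lower, and the 75th percentile differed by -0.0096. On the first principal component the RBX arrays measured 21.7, 22.3, 25.6 and 51.8 and the others from -28.9 to -11.8, mouse 4 with RBX standing farthest out. In all, 8 of the 11 measures reached the smallest possible exact p. Group membership accounted for an R squared of 0.792 in log2 cre and 0.787 in the Actb ratio over these 8 arrays, so a drug effect and an effect of array or RNA handling cannot be told apart here.

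**Figure D1:**
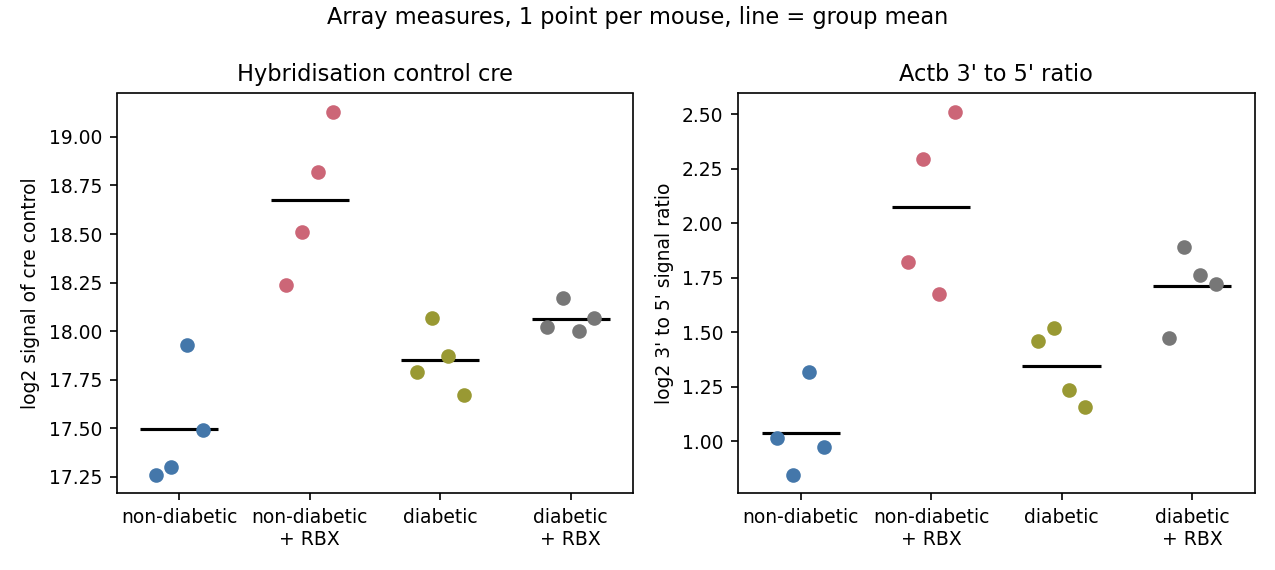
Log2 signal of the cre hybridisation control (left) and log2 3' to 5' signal ratio of Actb (right), 1 point per mouse in each of the 4 groups, the line marking the group mean. The 4 non-diabetic RBX arrays lie between 18.24 and 19.13 for cre, above all 4 non-diabetic arrays without RBX, and the diabetic groups lie between the extremes.

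Each of 11036 genes, 1 probe set a gene, was compared on log2 signal with limma. A gene was called when its adjusted p was under 0.05. With RBX 1824 genes rose (16.5%) and 1669 fell (15.1%), 31.7% of those tested, and 4718 had an unadjusted p under 0.05. Over 2-fold there were 282 rises (2.56%) and 321 falls (2.91%). The size of a called change had a median of 0.624 on the log2 scale, and the changes ran from -2.76 to 2.99. In 3038 genes (27.5%) the 4 mice of one group all lay beyond the 4 of the other, higher with RBX in 1577 (14.3%) and lower in 1461 (13.2%), and 2596 of them were called. The median over all genes was 0.03 and 53.1% lay above 0.

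Most calls were kept under another scaling, and none with the cre control as a covariate. After quantile normalization 1762 genes rose and 1549 fell (30.0%), and 3056 of the 3493 genes kept their call and direction. With log2 cre as a covariate 0 genes passed (0%; limma, 1573 at an unadjusted p under 0.05, smallest adjusted p = 0.0572). In that fit 88.5% of the called genes kept their sign, their median size was 0.40 and their median SE was 0.294, against 0.15 without the covariate. With the Actb ratio as a covariate 86 genes rose and 88 fell (1.58%), and 93% of the called genes kept their sign. Without mouse 4 of the RBX group, 1552 genes rose and 1384 fell. A total of 1559 genes passed in every fit without a covariate, with each of the 8 arrays left out in turn among them, and 133 of these passed with the Actb ratio as well. Each rise and fall below is a call of the fit without a covariate, to be read beside these counts.

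**Figure D2:**
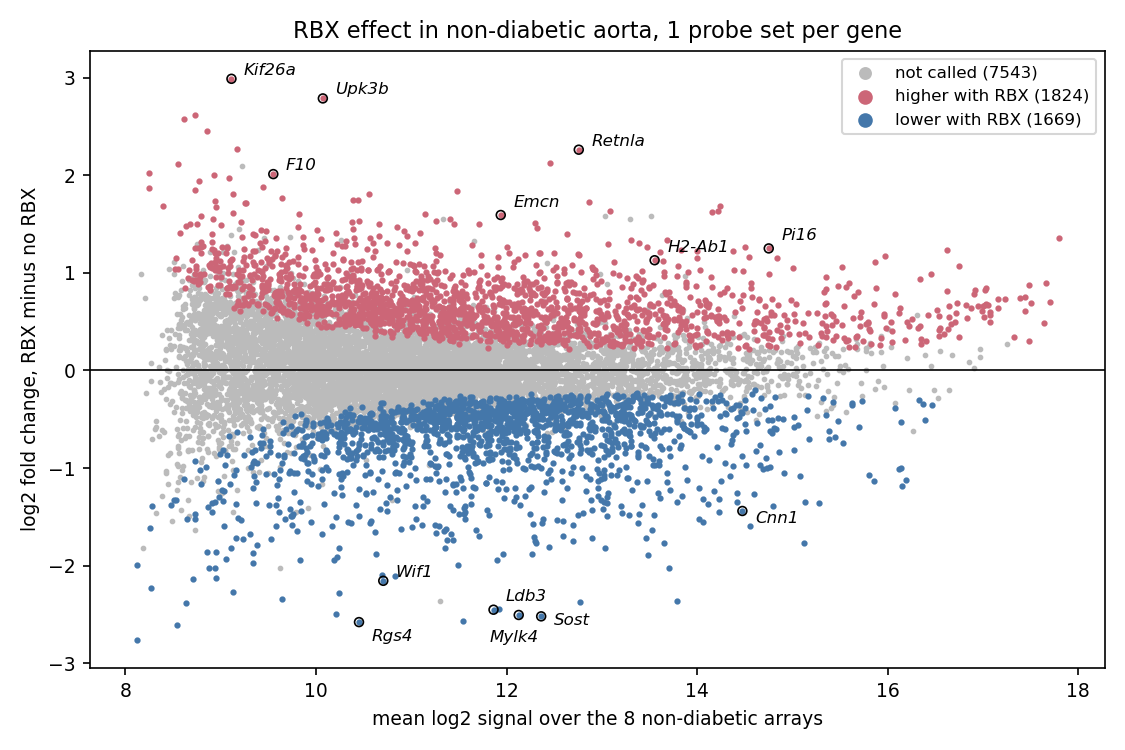
Log2 fold change (RBX minus no RBX) of 11036 genes against their mean log2 signal over the 8 non-diabetic arrays, 1 point per gene. The 1824 genes called higher and 1669 called lower spread over the whole range of signal, and the farthest points are Kif26a at 2.99 above and Igsf9 at -2.76 below.

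Dim genes leaned upward. With the genes tested split by signal into 5 equal bins, the dimmest bin (383 to 869) had a median log2 fold change of 0.19, and the next bins had 0.05, 0.01, -0.04 and 0.01. Over all probe sets with 1 gene symbol, those below the filter included, the dimmest bin had a median of 0.71. Rises of genes with signals just above the filter are therefore read against a shift of that kind, which brighter genes did not share.

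The target of the drug did not pass. Prkcb, which encodes protein kinase C beta, measured 2396, 2095, 2412 and 1126 without RBX and 2482, 2864, 2801 and 2293 with it. The ranges overlapped, mouse 4 without RBX being the lowest (log2 fold change 0.44, SE 0.20, adjusted p = 0.0989). RBX blocks the activity of the kinase, so its transcript level tests no label. Apoe, the disrupted gene, measured 493, 410.4, 843 and 436 without and 790, 753, 635 and 741 with RBX (log2 fold change 0.48, SE 0.55, adjusted p = 0.536).

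Genes of protein kinase C and diacylglycerol signalling moved both ways. Of 25 measured, 10 rose and 5 fell, where 16.5% of all genes rose and 15.1% fell. The list's median was 0.38 where that of all genes was 0.03. Phospholipases C, the enzymes that make diacylglycerol from membrane phosphoinositides, gave 2 falls and 3 rises. Plcb4, a phospholipase C coupled to Gq receptors, measured 27116, 24646, 22056 and 27070.4 without RBX and 12266, 13286, 8969.7 and 9757 with it. Each of the 4 RBX mice was below each of the 4 others (log2 fold change -1.20, SE 0.14, adjusted p = 9.03e-06). Plcb1, its relative, fell by 0.84 (SE 0.11, adjusted p = 2.87e-05). The rises were Plcb2 at 1.20 (SE 0.28, adjusted p = 0.00314), dim without RBX at a mean of 339, Plcg1 at 0.44 (SE 0.10, adjusted p = 0.0035) and Plcg2 at 0.47 (SE 0.16, adjusted p = 0.0314), named after their values were seen. Plcb4 was at -0.66 and Prkch, described next, at 0.47 with cre as a covariate. Dgkz, a diacylglycerol kinase that converts the second messenger to phosphatidic acid, rose by 0.67 (SE 0.11, adjusted p = 0.000155). Prkch, the eta isoform of protein kinase C, rose from 1679 ± 171 to 3199 ± 473 (SD, n = 4), a log2 change of 0.92 (SE 0.15, adjusted p = 0.000185). The 3 other falls, named after their values were seen, were the diacylglycerol kinase Dgkh (-0.54), the kinase Pkn2 (-0.51) and protein kinase D1, Prkd1 (-0.34).

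The genes reported downstream of protein kinase C beta in vascular cells gave 11 rises and 4 falls among 27, with a median of 0.46. Over all genes 16.5% rose and 15.1% fell. Nox4, an oxidase that produces hydrogen peroxide and is abundant in smooth muscle, measured 23944, 23918, 20794 and 26759.8 without RBX and 11047, 7515, 6688 and 4339 with it. Every RBX mouse was below every other mouse, mouse 4 lowest (log2 fold change -1.76, SE 0.20, adjusted p = 9.67e-06), and the change was -0.72 with cre as a covariate. Icam1, the leukocyte adhesion molecule, measured 4682, 5276, 4494 and 6965 without and 11119, 9211, 10118 and 14064 with RBX, higher in each RBX mouse than in any other (log2 fold change 1.06, SE 0.16, adjusted p = 0.000105). Edn1, which encodes the vasoconstrictor endothelin 1, measured 2763, 3491, 3231 and 4354 without RBX and 7054, 5726, 6536 and 14542 with it, mouse 4 with RBX being the highest (log2 fold change 1.21, SE 0.25, adjusted p = 0.00146), and was at 0.73 with cre as a covariate. Nos3, endothelial nitric oxide synthase, rose from 4389.8 ± 956 to 8173 ± 1344 (SD, n = 4), or 0.90 (SE 0.17, adjusted p = 0.000658). The 3 other falls, named after their values were seen, were the connective tissue growth factor Ccn2 (-0.997), Vcam1 (-0.54) and the insulin receptor substrate Irs1 (-0.49). Endothelial genes, to which Nos3 and Icam2 of this list belong, rose on the same arrays as described below.

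Contractile smooth muscle genes fell with RBX. Of 26 genes, 21 fell and 2 rose, with a median log2 fold change of -1.05 against 0.03 over all genes and 15.1% falling. The mean over the list, relative to the mice without RBX, was 0.08, 0.07, -0.25 and 0.10 in those mice and -0.75, -0.56, -1.11 and -1.44 in the RBX mice. Mouse 4 with RBX was the lowest, and the groups did not overlap. Ldb3, a Z-disc protein that binds alpha-actinin, measured 8263, 8769, 6795 and 11672 without RBX and 2116, 2299, 1439 and 922 with it (log2 fold change -2.45, SE 0.23, adjusted p = 2.55e-06), the lowest untreated mouse standing far above the highest treated one. Its other probe sets gave smaller values (-1.14, unadjusted p = 0.0213, and -0.41, unadjusted p = 0.072). Vcl, which encodes the focal adhesion protein vinculin, measured 49932, 44653, 36291 and 48123 without and 20461, 26959, 18953 and 20559.6 with RBX (log2 fold change -1.04, SE 0.12, adjusted p = 9.23e-06). Cnn1, calponin 1, an actin-binding regulator of contraction, measured 40238, 41329, 28345 and 41931 without and 16884, 21138, 11470.1 and 8941 with RBX (log2 fold change -1.44, SE 0.19, adjusted p = 4.11e-05). In these genes too the groups did not overlap, and mouse 3 was the lowest of the untreated group. Csrp1, a partner of serum response factor, fell from 50734 ± 8017 to 24136 ± 4870 (SD, n = 4), or -1.08 (SE 0.14, adjusted p = 2.33e-05). Ldb3 was at -1.23, Cnn1 at -0.39 and Csrp1 at -0.40 with cre as a covariate.

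Acta2, the brightest gene of the list, did not share the fall. It measured 197321, 244278, 206346 and 172273 with RBX, overlapping the values given above (0.30 (SE 0.11, adjusted p = 0.0436)), and the tropomyosin Tpm2 rose by 0.34 (SE 0.09, adjusted p = 0.00573). They were the 2 rises, named after their values were seen. The 3 genes not called, named likewise, were Tagln (-0.20), Des (-0.48) and Pln (0.21). After quantile normalization neither Acta2 nor Tpm2 was left as a rise, while 23 genes of the list fell. With cre as a covariate the list's median was -0.20, and with the Actb ratio -0.77, so it stayed below 0 and shrank. On the same arrays endothelial, fibroblast, macrophage and adipocyte genes rose, and their part in this fall was not tested. In whole tissue, fewer cells of a type and less RNA per cell cannot be told apart.

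The CArG box is the site to which serum response factor and its partner myocardin bind in many contractile genes. Its consensus was searched on both strands from 250 bases before to 50 after the start of each gene in RefSeq (GRCm38.p6). It occurred in 1.63% of 32851 promoters, in 1.62% of 8945 genes tested that had a promoter, and in 3 of 22 contractile genes (13.6%), each of which fell. Of the 22, 20 were called, so most genes without the box were called too. The 3 are shown because their genes fell together, with the match in capitals. They are Ldb3 (chr14:34588558-34588857, minus strand), Vcl (chr14:20929148-20929447, plus strand) and Myl9 (chr2:156775214-156775513, plus strand), which encodes a regulatory myosin light chain and fell by 1.12 (SE 0.16, adjusted p = 5.11e-05).
Ldb3: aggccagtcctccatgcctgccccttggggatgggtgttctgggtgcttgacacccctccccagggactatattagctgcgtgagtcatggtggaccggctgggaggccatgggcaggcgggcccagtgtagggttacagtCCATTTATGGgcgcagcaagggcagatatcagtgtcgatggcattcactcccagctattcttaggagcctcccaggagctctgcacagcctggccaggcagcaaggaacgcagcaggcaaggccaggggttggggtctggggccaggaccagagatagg
Vcl: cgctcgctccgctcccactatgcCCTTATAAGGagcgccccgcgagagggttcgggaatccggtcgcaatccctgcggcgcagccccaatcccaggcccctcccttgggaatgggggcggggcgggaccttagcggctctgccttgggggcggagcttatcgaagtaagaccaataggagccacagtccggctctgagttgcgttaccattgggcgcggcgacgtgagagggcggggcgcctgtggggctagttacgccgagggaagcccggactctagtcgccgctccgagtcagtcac
Myl9: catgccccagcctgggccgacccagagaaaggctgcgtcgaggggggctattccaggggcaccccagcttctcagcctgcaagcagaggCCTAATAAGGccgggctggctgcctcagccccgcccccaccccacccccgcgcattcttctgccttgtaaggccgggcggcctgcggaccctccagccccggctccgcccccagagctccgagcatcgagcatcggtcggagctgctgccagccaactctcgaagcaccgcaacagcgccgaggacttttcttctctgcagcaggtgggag
Counted from the start of the gene, the match begins at base -109 in Ldb3, -227 in Vcl and -161 in Myl9. A match describes the sequence alone, and the other 19 contractile genes with a promoter had none in this window.

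Channels and receptors of smooth muscle fell alongside. Of 23 genes, 14 fell and 1 rose, with a median of -0.97, where 15.1% of all genes fell and 16.5% rose. The only rise, named after its values were seen, was the endothelin receptor Ednrb (1.11), which endothelium also expresses. Rgs4, which shortens signalling by Gq and Gi proteins, measured 3089, 3394, 2329 and 5598 without RBX and 604, 630.5, 918 and 308 with it (log2 fold change -2.58, SE 0.32, adjusted p = 2.27e-05). The 2 subunits of soluble guanylate cyclase, the nitric oxide receptor, both fell. Gucy1a1 measured 17262, 17784, 12987 and 19603 without and 7713, 7710.2, 4622 and 4670.5 with RBX (log2 fold change -1.48, SE 0.19, adjusted p = 2.12e-05), and Gucy1b1 measured 15046, 14269, 10134 and 16753 without and 5397, 5386, 3393 and 3183 with RBX (log2 fold change -1.72, SE 0.20, adjusted p = 9.67e-06). In all of them the groups were separate. Atp2a2, the calcium pump of the sarcoplasmic reticulum, fell from 30839 ± 3866 to 16921 ± 2657 (SD, n = 4), or -0.87 (SE 0.12, adjusted p = 3.92e-05). With cre as a covariate the list's median was -0.24 and with the Actb ratio -0.47. In the fit with cre Rgs4 was at -1.68, Gucy1a1 at -0.52, Gucy1b1 at -0.76 and Atp2a2 at -0.24.

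Among the 15 largest falls were further genes of excitation and signalling. Cacnb2, a subunit of voltage-gated calcium channels, measured 1046, 867, 659 and 1178 without RBX and 178, 168, 38.1 and 446 with it, so that 3 of the 4 treated mice lay below the signal filter of 383 and 1 above it (log2 fold change -2.61, SE 0.59, adjusted p = 0.00287). Htr1b, a serotonin receptor that mediates vasoconstriction, measured 6445, 6337, 7194 and 9528 without and 857, 1183, 1645 and 1378 with RBX (log2 fold change -2.56, SE 0.29, adjusted p = 9.03e-06). Mylk4, a kinase of the myosin light chain kinase family, measured 13106, 12564, 7523 and 10411 without and 2088, 2688, 1620.2 and 1372 with RBX (log2 fold change -2.50, SE 0.22, adjusted p = 1.83e-06). For Htr1b and Mylk4 the groups were over 2-fold apart at their nearest mice, but a second probe set of Htr1b was at -0.30, unadjusted p = 0.322, and the mean over both was -1.43. Sphkap, which tethers protein kinase A, measured 2208, 2194, 3618 and 3525 without and 704, 377, 560.4 and 419 with RBX (log2 fold change -2.49, SE 0.22, adjusted p = 1.83e-06). The potassium channel Kcnj15 (-2.10) and the kinase anchor Akap6 (-2.28) fell, but with cre as a covariate Akap6 was 0.58. It was at 103 in mouse 4 with RBX, far under the other 3 treated mice. The mitochondrial calcium-binding protein Efhd1 (-2.37), the membrane-scission gene Chmp4c (-2.34) and the keratin-associated Krtap12-1 (-2.23) fell as well. With RBX Krtap12-1 measured 113, 403, 150 and 60.1 and Chmp4c 405, 740, 372 and 141, beside a signal filter of 383. Efhd1 was at -0.57, Chmp4c at -0.65, Krtap12-1 at -0.65 and Mylk4 at -1.43 with cre as a covariate.

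**Figure D3:**
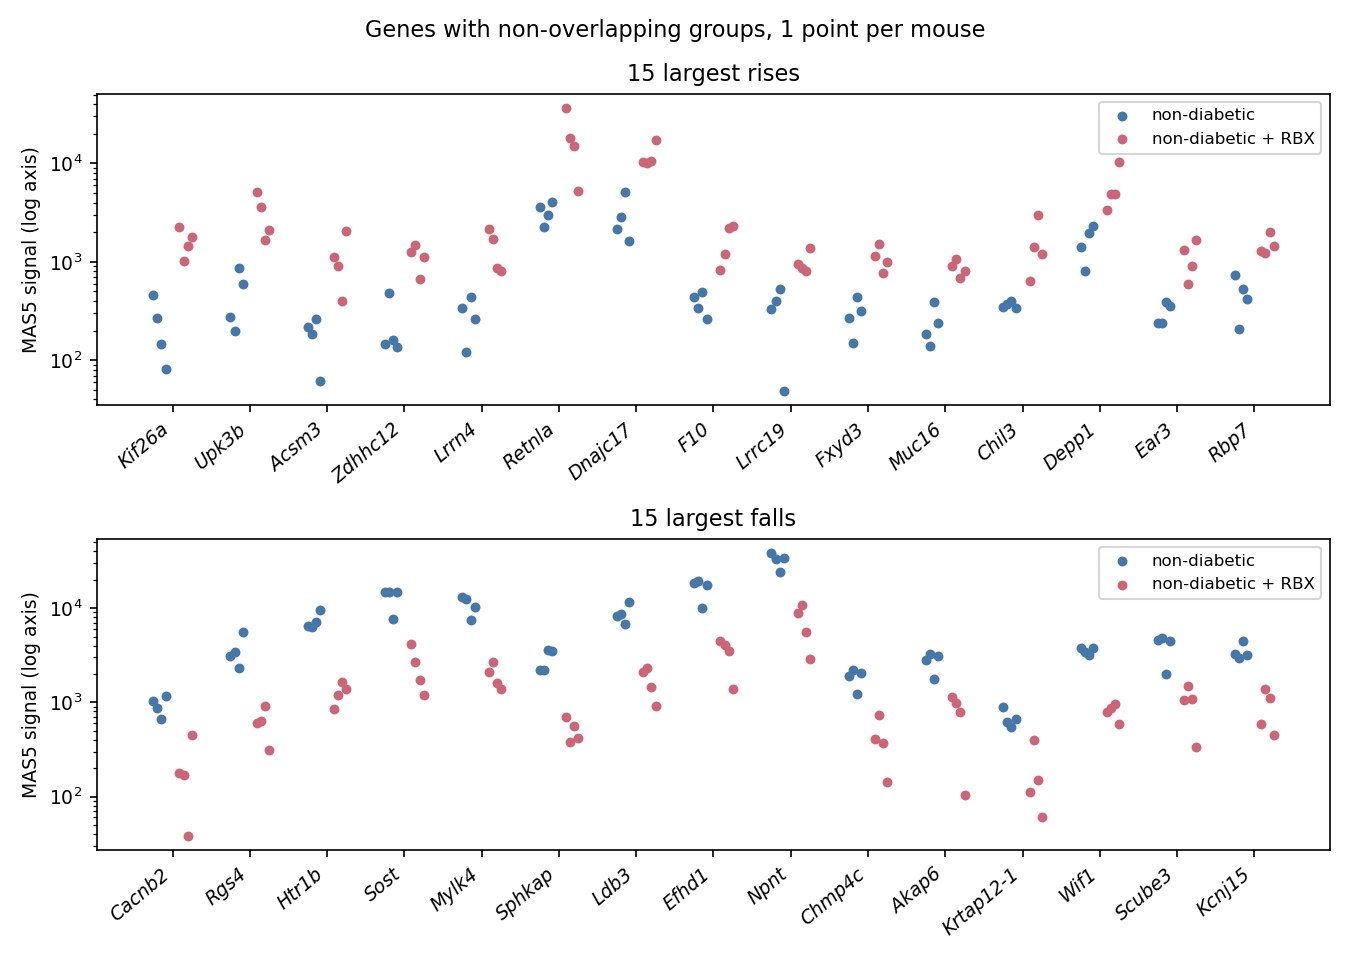
MAS5 signal on a log axis of the 15 largest rises (top) and 15 largest falls (bottom) among called genes whose groups do not overlap, 1 point per mouse. Retnla runs from 5293 to 36785 with RBX and Akap6 has 1 RBX mouse at 103, while Mylk4, Sphkap and Wif1 form 2 separate groups.

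Secreted Wnt antagonists moved in both directions, with the larger changes downward. Of 17 genes on Wnt antagonists and targets, 6 fell and 4 rose (median -0.22, and 0.06 with cre as a covariate). Among all genes 15.1% fell and 16.5% rose. Sost encodes sclerostin, a Wnt inhibitor best known from bone and also made by aortic smooth muscle. Its signal was 14891, 14983, 7696 and 14734 without RBX and 4178, 2697, 1721 and 1211 with it, mouse 3 being low in the first group and mouse 4 lowest in the second (log2 fold change -2.52, SE 0.29, adjusted p = 1.09e-05), and the change was -0.81 with cre as a covariate. Wif1, which binds Wnt ligands, measured 3740.3, 3426, 3187 and 3776 without and 789.6, 864, 969 and 594 with RBX (log2 fold change -2.15, SE 0.18, adjusted p = 1.83e-06), and Frzb, another decoy for Wnt ligands, measured 12252, 12925, 13159 and 9365 without and 4411, 5718, 6551 and 5054 with RBX (log2 fold change -1.14, SE 0.14, adjusted p = 1.96e-05). For both the highest RBX mouse stayed below the lowest mouse without it. In the other direction Fzd4, a Wnt receptor of endothelium, measured 7281, 8609, 9511 and 7557 without and 25122, 12216, 20052 and 21456 with RBX (log2 fold change 1.22, SE 0.18, adjusted p = 8.27e-05), while another probe set was at 0.30, unadjusted p = 0.0534. The other 3 rises, named after their values were seen, were the secreted Wnt modulators Sfrp5 (1.05), Dkk2 (1.37) and Sfrp1 (0.62).

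Extracellular matrix genes changed in both directions. Among 28 elastic fibre and matricellular genes 5 fell and 4 rose (median -0.25), shares near the 15.1% and 16.5% of all genes, and after quantile normalization 12 fell and 3 rose. Among 25 fibrillar and basement membrane collagen genes, collagen-modifying enzymes included, 7 fell and 3 rose (median -0.13). Both medians turned above 0 with cre as a covariate (0.17 and 0.16) and with the Actb ratio (0.12 and 0.15). The rises, named after their values were seen, were the small proteoglycans fibromodulin, Fmod (1.15), and decorin, Dcn (0.50), the fibulin Efemp1 (0.63) and Ltbp3 (0.48), and, among the collagens, Col16a1 (0.63), Col1a2 (0.37) and Col4a1 (0.26). Npnt and Scube3 are in neither list and are given here for the size of their falls. Npnt, nephronectin, a ligand of integrin alpha 8 beta 1, measured 38756, 33324, 24097 and 34446 without RBX and 8954, 10692, 5523 and 2915 with it (log2 fold change -2.36, SE 0.29, adjusted p = 1.87e-05). Tnc, tenascin C, a matricellular protein of remodelling wall, measured 13772, 14498, 9108 and 11266 without and 3787, 4915, 5317 and 5255 with RBX (log2 fold change -1.32, SE 0.19, adjusted p = 6.12e-05). In both the groups were separate, and Npnt was lowest in mouse 4 with RBX. Postn, periostin, measured 93323, 96809.7, 107969 and 107332 without and 47887, 61294, 53842 and 40032 with RBX (log2 fold change -1.01, SE 0.14, adjusted p = 5.8e-05). Lox, the enzyme that cross-links collagen and elastin, measured 21789, 21543, 22881 and 23765 without and 9203, 10034, 14911 and 8329 with RBX (log2 fold change -1.12, SE 0.16, adjusted p = 7.38e-05), again with no overlap. Also lower were Ltbp1, which stores latent TGF-beta (-1.63), the proteoglycan versican, Vcan (-1.53), the collagen hydroxylases P4ha2 (-0.87) and Plod2 (-0.74), Col18a1 (-0.77) and the secreted Scube3 (-2.11). Npnt was at -0.70, Ltbp1 at -0.71, P4ha2 at -0.26, Col18a1 at -0.03 and Scube3 at -0.22 with cre as a covariate.

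Proteases and their inhibitors split evenly, with 4 rises and 4 falls among 17 genes (median 0.32). For comparison, 16.5% of all genes rose and 15.1% fell. Mmp23, a membrane-anchored metalloproteinase, measured 8071, 8131, 7932 and 7935 without RBX and 14756, 15384, 14596 and 15498 with it (log2 fold change 0.91, SE 0.08, adjusted p = 2.55e-06). The mice within each group lay close together and the groups were well apart, although a second probe set of the gene was at -0.10 (unadjusted p = 0.552). Adamts1, which cleaves versican, measured 15352, 14888, 11502 and 11691 without and 6814, 4389, 5878 and 5455 with RBX (log2 fold change -1.25, SE 0.14, adjusted p = 8.66e-06). Mmp12, macrophage elastase, measured 20496, 19876, 39250.4 and 17106 without and 34476, 44773, 68064 and 47606 with RBX, where mouse 3 without RBX lay above the lowest RBX mouse (log2 fold change 1.05, SE 0.23, adjusted p = 0.00227), and it was at 0.10 with cre as a covariate. Timp2, an inhibitor of metalloproteinases, rose on the probe set used (0.58 (SE 0.09, adjusted p = 0.000144)) and another of its probe sets was lower (-0.68, unadjusted p = 0.0188), so no direction is given for the gene.

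Endothelial genes were higher with RBX. Of 31 measured, 25 rose and none fell, with a median of 0.71 where 16.5% of all genes rose. The list's mean, relative to the untreated mice, was -0.04, -0.08, -0.04 and 0.16 without RBX and 0.63, 0.55, 0.70 and 0.91 with it, without overlap. Emcn, the endothelial sialomucin endomucin, measured 2004, 1442, 2127 and 4257 without and 6128, 5651, 6829 and 9133 with RBX, mouse 4 being the highest in both groups (log2 fold change 1.59, SE 0.28, adjusted p = 0.000423). Egfl7, a matrix protein made by endothelium, measured 2998, 2975, 3136 and 3347 without and 6443, 7075, 6507 and 8330.5 with RBX, with a wide gap between the groups (log2 fold change 1.18, SE 0.17, adjusted p = 6.27e-05). Eng, endoglin, a co-receptor for TGF-beta, measured 3526, 5462, 5370.2 and 4115 without and 8614, 9697, 9307 and 10976 with RBX (log2 fold change 1.08, SE 0.16, adjusted p = 8.76e-05). Ecscr, an endothelial surface protein, rose from 3709 ± 558 to 7426 ± 1263 (SD, n = 4), with adjusted p = 0.000209. The list's median was 0.74 after quantile normalization, 0.59 with cre as a covariate and 0.73 with the Actb ratio. Pecam1, a defining endothelial marker, did not pass (0.20 (SE 0.21, adjusted p = 0.483)), and is named after its value was seen.

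Interferon response genes rose without a fall. Of 41 measured, 27 rose, where 16.5% of all genes rose and 15.1% fell. The list's median of 0.55 was 0.49 with cre as a covariate and 0.77 with the Actb ratio. By mouse the list's mean was 0.07, -0.07, 0.01 and -0.01 without RBX and 0.56, 0.53, 0.65 and 0.46 with it, a narrow band in each group. Iigp1, an interferon-inducible GTPase of defence within cells, measured 5311, 4869, 5287 and 4375 without and 11165, 8094, 10464 and 10389.8 with RBX (log2 fold change 1.01, SE 0.11, adjusted p = 7.41e-06). Ifih1, the cytoplasmic sensor of double-stranded RNA also called MDA5, measured 2346, 2449, 2168 and 2328 without and 3827, 4026, 4145 and 3999.5 with RBX (log2 fold change 0.78, SE 0.11, adjusted p = 3.96e-05). Parp14, an ADP-ribosyltransferase, measured 2205, 1815, 2130.1 and 2192 without and 3435, 3402, 3894 and 4579 with RBX (log2 fold change 0.87, SE 0.13, adjusted p = 7.55e-05). The lowest RBX mouse was above the highest untreated mouse in each. Ifi35 rose on the probe set used (0.48 (SE 0.07, adjusted p = 8.33e-05)), while its 2 other probe sets were at -0.13 and -0.06, neither with an unadjusted p under 0.05.

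The interferon-stimulated response element binds the factor complex that interferon activates. Its core, the letters GAAA on either side of any 2 bases, was searched on both strands of the same promoters. It occurred in 3.44% of all promoters, in 3.62% of genes tested and in 18 of 30 interferon response genes with a promoter (60%). Of the 19 of these genes that rose, 11 held it. The 3 with the smallest p are printed because they rose together, with the core in capitals. They are Ifih1 (chr2:62646206-62646505, minus strand), Oas1a (chr5:120907476-120907775, minus strand), which encodes an RNA-activated oligoadenylate synthetase and rose by 0.85 (SE 0.13, adjusted p = 0.000157), and Igtp (chr11:58199306-58199605, plus strand), an interferon-inducible GTPase that rose by 0.91 (SE 0.16, adjusted p = 0.000294).
Ifih1: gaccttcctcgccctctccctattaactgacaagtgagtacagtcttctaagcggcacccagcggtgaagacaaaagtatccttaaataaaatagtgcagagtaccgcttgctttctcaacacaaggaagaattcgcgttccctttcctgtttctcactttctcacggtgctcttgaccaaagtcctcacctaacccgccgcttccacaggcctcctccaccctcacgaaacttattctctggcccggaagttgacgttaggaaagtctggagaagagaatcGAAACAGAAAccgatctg
Oas1a: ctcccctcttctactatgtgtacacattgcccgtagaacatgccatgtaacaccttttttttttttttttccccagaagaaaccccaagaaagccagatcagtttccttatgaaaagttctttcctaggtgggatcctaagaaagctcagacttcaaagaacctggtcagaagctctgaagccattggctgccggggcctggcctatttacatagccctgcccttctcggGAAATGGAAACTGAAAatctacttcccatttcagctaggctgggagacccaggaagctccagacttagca
Igtp: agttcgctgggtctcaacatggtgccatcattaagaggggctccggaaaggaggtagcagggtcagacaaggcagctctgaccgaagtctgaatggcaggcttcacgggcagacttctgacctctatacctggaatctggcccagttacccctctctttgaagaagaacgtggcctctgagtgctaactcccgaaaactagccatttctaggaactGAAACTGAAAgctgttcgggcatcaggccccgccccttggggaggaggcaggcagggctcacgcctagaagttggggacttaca
The core begins at base 33 in Ifih1 and -34 in Igtp. Oas1a holds 2 overlapping copies, which begin at -20 and -14. The list was put together for the interferon response, so the share describes the list and not the drug.

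Antigen presentation genes rose as well. Where 16.5% of all genes rose and 15.1% fell, 12 of 16 genes of MHC class I and the immunoproteasome rose (median 0.52). Of 10 MHC class II genes 6 rose (median 0.70), and neither list had a fall. Both medians were as large with cre as a covariate (0.54 and 0.74). H2-Ab1, the beta chain of the class II molecule I-A, measured 9422, 8388, 8215 and 6733 without RBX and 17554, 17396, 16326 and 20088 with it (log2 fold change 1.13, SE 0.13, adjusted p = 8.15e-06). H2-Aa, its alpha chain, measured 33137, 32046, 29461 and 25730.5 without and 56157, 55682, 53482 and 68420.3 with RBX (log2 fold change 0.96, SE 0.10, adjusted p = 4.23e-06). Mouse 4 was the lowest of the untreated group and the highest of the treated group for both. Psmb8, a catalytic subunit of the immunoproteasome, measured 2582, 2395, 2871 and 2328 without and 4844, 4401, 5436 and 5304 with RBX (log2 fold change 0.97, SE 0.13, adjusted p = 3.54e-05). Psmb9 (1.02) and Psmb10 (0.51), the other catalytic subunits, rose too, as did Cd74, the invariant chain (0.68), and H2-Eb1 (0.67). Tapbp, tapasin, rose by 0.52 on its brightest probe set but averaged over its probe sets it was -0.06 (adjusted p = 0.852). MHC genes resemble one another, and an array probe set can take signal from a relative.

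Macrophage genes rose, but their median was near 0 with cre as a covariate. Of 29 macrophage and foam cell genes 20 rose (14 after quantile normalization) and none fell, where 16.5% of all genes rose. The list's median was 0.62. That median was -0.05 with cre as a covariate and 0.55 with the Actb ratio. By mouse the list's mean was -0.12, -0.04, 0.37 and -0.21 without RBX and 0.26, 0.50, 0.94 and 0.80 with it, so mouse 3 without RBX lay above mouse 1 with it, and 7 of the 29 genes were higher without overlap, where 14.3% of all genes were. Csf1r, the receptor of macrophage colony-stimulating factor, measured 24114, 19870.5, 25429 and 19214 without RBX and 39397, 34253, 35522 and 36836 with it (log2 fold change 0.73, SE 0.10, adjusted p = 7.05e-05). Cd36, a scavenger receptor for oxidised lipoprotein, measured 8153, 7106, 16020.1 and 10136 without and 16874, 18896, 21609 and 26586 with RBX, mouse 3 without RBX coming close to the treated range (log2 fold change 1.07, SE 0.22, adjusted p = 0.00153). Cd36 was at 0.03 and Csf1r at 0.60 with cre as a covariate. Spi1, the myeloid transcription factor PU.1, rose by 1.09 (0.66 with cre) and the oxidase subunit Ncf4 by 0.84 (0.41 with cre).

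Resident adventitial macrophage genes stood higher, and their median was as high with either covariate, although none kept its call with cre and 4 passed as rises with the Actb ratio. Of 15 measured, 10 rose and 1 fell, where 16.5% of all genes rose and 15.1% fell. The fall was Cbr2, a carbonyl reductase, at -1.05, named after its value was seen. The list's median was 0.91, 1.16 with cre as a covariate and 1.02 with the Actb ratio. Retnla, a secreted protein of alternatively activated macrophages, measured 3647, 2261, 3004 and 4046 without RBX and 36785, 18009, 15084 and 5293 with it. Mouse 1 with RBX was highest and mouse 4 lowest, yet above all untreated mice (log2 fold change 2.26, SE 0.45, adjusted p = 0.0012). Lyve1, a hyaluronan receptor of vessel-wall macrophages and lymphatics, measured 1971, 2079, 2212 and 1882 without and 8793, 3979, 3823 and 4553 with RBX, mouse 1 with RBX again the highest (log2 fold change 1.29, SE 0.20, adjusted p = 0.000113). F13a1, the coagulation factor XIII A chain, measured 8104, 7944, 7653 and 5826 without and 27979, 12962, 16864 and 15650.1 with RBX (log2 fold change 1.26, SE 0.18, adjusted p = 6.83e-05). Chil3, a chitinase-like secreted protein, measured 351, 373, 400.4 and 337 without and 635, 1414, 2968 and 1199.7 with RBX, from a dim and even untreated level (log2 fold change 1.88, SE 0.32, adjusted p = 0.000342). Chil3 was at 0.86 and Retnla at 3.84 with cre as a covariate. Ear3, one of a family of near-identical eosinophil-associated ribonucleases, rose by 1.80, with other members of the family able to share its signal.

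Genes of platelets and erythroid cells rose in 7 of 10 cases with no falls, where 16.5% of all genes rose. Their median was 1.17. That median was 0.76 with cre and 0.315 with the Actb ratio as a covariate. By mouse the list's mean was -0.14, -0.50, 0.53 and 0.115 without RBX and 1.13, 1.16, 0.50 and 0.60 with it. Mouse 3 without RBX thus lay above mouse 3 with it. Pf4, platelet factor 4, which tissue macrophages also express, measured 6119.8, 6286, 7759.6 and 5600 without RBX and 18406, 14834, 13396 and 18503 with it, with no overlap (log2 fold change 1.33, SE 0.13, adjusted p = 2.81e-06). Treml1, a receptor of platelet granules, measured 491, 554, 912 and 619 without and 1876, 1673, 1442 and 1832 with RBX (log2 fold change 1.44, SE 0.32, adjusted p = 0.0025). Gp1bb (0.92) and Itga2b (1.22), subunits of platelet adhesion receptors, rose as well, though Itga2b was at 0.51 with cre and -0.0035 with the Actb ratio as a covariate. F10, coagulation factor X, is not on this list but on that of complement and coagulation. It measured 436, 343, 498 and 262 without and 828, 1207, 2231 and 2311 with RBX, higher in mice 3 and 4 of the RBX group than in mice 1 and 2 (log2 fold change 2.01, SE 0.33, adjusted p = 0.000235), and was at 0.81 with cre as a covariate.

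Adventitial fibroblast genes rose in 10 of 20 cases and fell in 1, the hyaluronan synthase Has1 (-1.24), named after its value was seen. The median was 0.47, and 0.80 with cre as a covariate. By mouse the list's mean was -0.04, -0.06, 0.11 and -0.02 without RBX and 0.86, 0.49, 0.32 and -0.01 with it, so mouse 4 with RBX lay among the untreated mice, and 8 of the 20 genes were higher without overlap. Over all genes 14.3% were higher without overlap and 16.5% rose. Pi16, a marker of adventitial fibroblasts, measured 17829, 18417, 18951 and 16465 without RBX and 52038, 36529.8, 41517 and 41530.3 with it (log2 fold change 1.25, SE 0.12, adjusted p = 2.81e-06). Gsn, the actin-severing protein gelsolin, measured 93292, 89626, 118233 and 102898 without and 204574, 175257, 181885 and 161395 with RBX (log2 fold change 0.84, SE 0.12, adjusted p = 4.88e-05). Both left a gap between the groups, while 1 of the 4 further probe sets of Gsn was at 0.03, unadjusted p = 0.976. After quantile normalization Gsn was at 0.28 and lost its call (limma, adjusted p = 0.057). Igfbp6, which binds insulin-like growth factor II, measured 3954, 3774, 4394 and 3943 without and 12751, 8782, 6076 and 6554 with RBX, mouse 1 with RBX standing highest (log2 fold change 1.03, SE 0.18, adjusted p = 0.000393). The matrix protein dermatopontin, Dpt, rose by 0.83.

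Mesothelial and epithelial genes, which mark the lining of body cavities next to the vessel and not its wall, gave 2 of the 15 largest rises, Upk3b and Lrrn4. On the array 14 were present, 6 passed the filter, and 5 of these rose (median 1.66), where 16.5% of all genes rose. A gene dim in one group can pass the filter through the other, so the count over 6 is no measure of the whole list. Upk3b, uroplakin 3B, measured 273, 197, 875 and 598 without RBX and 5096, 3564, 1668 and 2106 with it (log2 fold change 2.79, SE 0.56, adjusted p = 0.00113). Lrrn4, a leucine-rich repeat protein of mesothelium, measured 337, 122, 442 and 260.3 without and 2160, 1692, 869 and 814 with RBX, mice 1 and 2 with RBX being highest for both genes (log2 fold change 2.27, SE 0.46, adjusted p = 0.00128). Muc16, the mucin that carries the CA125 antigen and another of the 15 largest rises, is not on this list and measured 186, 140.5, 395 and 242 without and 913, 1056, 681 and 815 with RBX (log2 fold change 1.94, SE 0.41, adjusted p = 0.00188). Krt18, a keratin of simple epithelia, rose by 0.84, and Upk1b measured 47.6, 95.2, 1041 and 184 without and 1212, 1223, 518 and 1578 with RBX, overlapping because mouse 3 without RBX was high (log2 fold change 2.61, SE 0.81, adjusted p = 0.02). Upk1b lost its call without each of 3 arrays in turn and was at 1.15 with cre as a covariate, where Krt18 was at 1.49. With cre as a covariate the list's median was 1.70, and the part of attached tissue in other rises was not tested.

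White adipocyte genes and fatty acid oxidation genes rose together, and both depended on the array fit. Where 16.5% of all genes rose and 15.1% fell, 10 of 17 adipocyte genes rose and 1 fell, with a median of 0.84. The fall, named after its value was seen, was the lipid droplet protein Plin4 at -0.55. Of 26 oxidation genes 19 rose and none fell (median 0.81). With the Actb ratio as a covariate these medians were -0.51 and -0.22, and with cre 0.38 and 0.33. By mouse the adipocyte mean was 0.06, -0.20, 0.30 and -0.15 without RBX and 0.89, 1.03, -0.06 and 1.25 with it, so mouse 3 with RBX lay among the untreated mice. Brown adipocyte genes moved with them. Their mean was 0.05, -0.24, 0.40 and -0.21 without RBX and 1.08, 1.05, 0.07 and 1.75 with it, again with mouse 3 low, and of 13 measured 4 rose and 1 fell (median 1.09, -0.02 with cre and -1.03 with the Actb ratio). Ucp1, the uncoupling protein that defines brown fat, had a mean of 7061 without and 25332 with RBX and did not pass (1.58 (SE 0.70, adjusted p = 0.0915)), and is named after its values were seen. The part of attached fat in the other values was not tested. Fabp4, the fatty acid binding protein of adipocytes, endothelium and macrophages, measured 69796, 50772, 92571 and 57121 without and 141998, 162534, 100934 and 242582 with RBX, mouse 4 with RBX far above and mouse 3 near the untreated top (log2 fold change 1.23, SE 0.26, adjusted p = 0.00194). Of its 3 other probe sets 2 did not reach an unadjusted p of 0.05 (0.50, unadjusted p = 0.274, and 0.23, unadjusted p = 0.41). Fabp4 was at 0.15 with cre as a covariate. Lpl, lipoprotein lipase, measured 52302, 48668, 92440.5 and 55359 without and 91388, 110295, 105350.4 and 164019.9 with RBX, overlapping by mouse 3 without RBX (log2 fold change 0.94, SE 0.19, adjusted p = 0.00124), and was at -0.07 with cre as a covariate. Etfb, an electron carrier of fat oxidation, measured 7249, 7358, 9287 and 7149.6 without and 15928, 17893, 9679.7 and 21835 with RBX (log2 fold change 1.02, SE 0.19, adjusted p = 0.000687), with the same low mouse 3. Also higher were Cebpa (0.84), a transcription factor of adipocytes, the lipase Pnpla2 (0.89), Acot2 (0.94), Acads (0.77) and the lipase inhibitor Angptl4 (0.87). The retinol-binding Rbp7, 1 of the 15 largest rises, is on none of these lists and rose by 1.77. Rbp7 was at 0.76 with cre and 0.69 with the Actb ratio as a covariate.

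The other leading rises were dim genes, or genes whose value moved with the fit. Without RBX the mean signal was 240 in Kif26a, 231 in Zdhhc12, 293 in Fxyd3, 182 in Acsm3 and 329 in Lrrc19. All lay under the filter of 383, as did Lrrn4, Muc16, Ear3 and Chil3, named earlier. The filter's mean included the RBX arrays, so genes dim without the drug could pass it through them. Their rank among the rises is therefore not independent of the filter. Dnajc17 and Depp1 lay above it in both groups. Kif26a, an atypical kinesin, measured 458, 272, 147 and 81.8 without RBX and 2266, 1009, 1459 and 1767 with it, the largest rise among the genes named (log2 fold change 2.99, SE 0.66, adjusted p = 0.00238). Dnajc17, a co-chaperone family member found with the spliceosome, measured 2152, 2834, 5166 and 1646 without and 10319.9, 10132, 10460.4 and 17097 with RBX, mouse 4 with RBX standing apart (log2 fold change 2.12, SE 0.24, adjusted p = 1.04e-05), and was at 0.89 with cre as a covariate. Depp1, a FoxO-responsive gene, measured 1412, 815, 1973 and 2293 without and 3373, 4899, 4904 and 10344 with RBX (log2 fold change 1.83, SE 0.44, adjusted p = 0.00423). It was below 0 with either covariate (-0.33 with cre and -0.39 with the Actb ratio). Zdhhc12, a palmitoyltransferase, measured 145, 483, 160 and 137 without and 1246, 1489, 671 and 1109 with RBX, mouse 2 standing apart among the untreated (log2 fold change 2.45, SE 0.61, adjusted p = 0.00554). Fxyd3, a regulator of the sodium pump, rose by 1.97. Acsm3, a mitochondrial acyl-CoA synthetase, rose by 2.58 but lost its call without each of 5 arrays and was -0.19 with the Actb ratio and 0.75 with cre as a covariate. Lrrc19 rose by 2.00 with mouse 4 without RBX at 48.8, and lost its call without each of 2 arrays.

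Heat shock chaperones fell. Of 22 measured, 16 fell and none rose, where 15.1% of all genes fell and 16.5% rose. The list's median was -0.60, -0.35 with cre as a covariate and -0.35 with the Actb ratio. Dnajb4, an Hsp40 co-chaperone, measured 18922, 17596, 15756 and 21662 without RBX and 5693, 5648, 6209 and 7517 with it (log2 fold change -1.56, SE 0.18, adjusted p = 9.4e-06). Hspa1b, an inducible Hsp70, measured 15254, 13457, 13518 and 21312 without and 5336, 7230.4, 7278 and 7052 with RBX (log2 fold change -1.23, SE 0.17, adjusted p = 5.83e-05), and it can share signal with its near-identical neighbour Hspa1a. Hsph1, an Hsp110 that exchanges nucleotide on Hsp70, measured 8329.9, 8405, 7293 and 13379 without and 3833, 4346, 4471 and 4010.4 with RBX (log2 fold change -1.13, SE 0.14, adjusted p = 2.68e-05). The groups were separate in each, and mouse 4 without RBX was the highest in all of them. Hspb1, a small heat shock protein abundant in smooth muscle, fell by 1.38 and was at -0.28 with cre as a covariate.

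**Figure D4:**
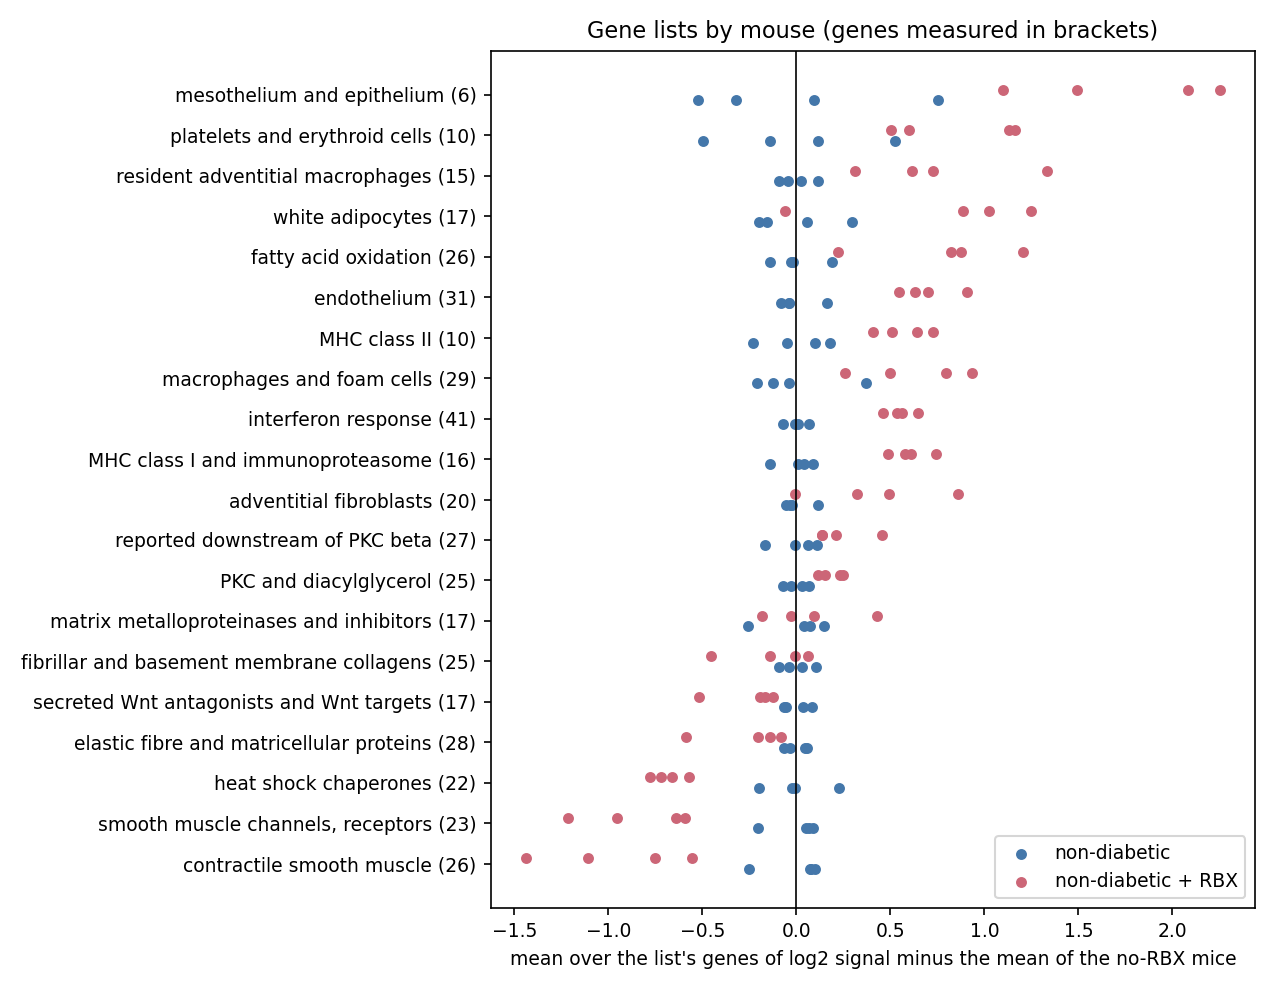
Mean over the genes of each list of log2 signal, relative to the mean of the 4 mice without RBX, 1 point per mouse, for 20 lists with the number of genes in brackets. Contractile genes of the RBX mice lie between -1.44 and -0.56, interferon response genes between 0.46 and 0.65, and 1 RBX mouse lies among the untreated mice for white adipocyte genes.

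**Figure D5:**
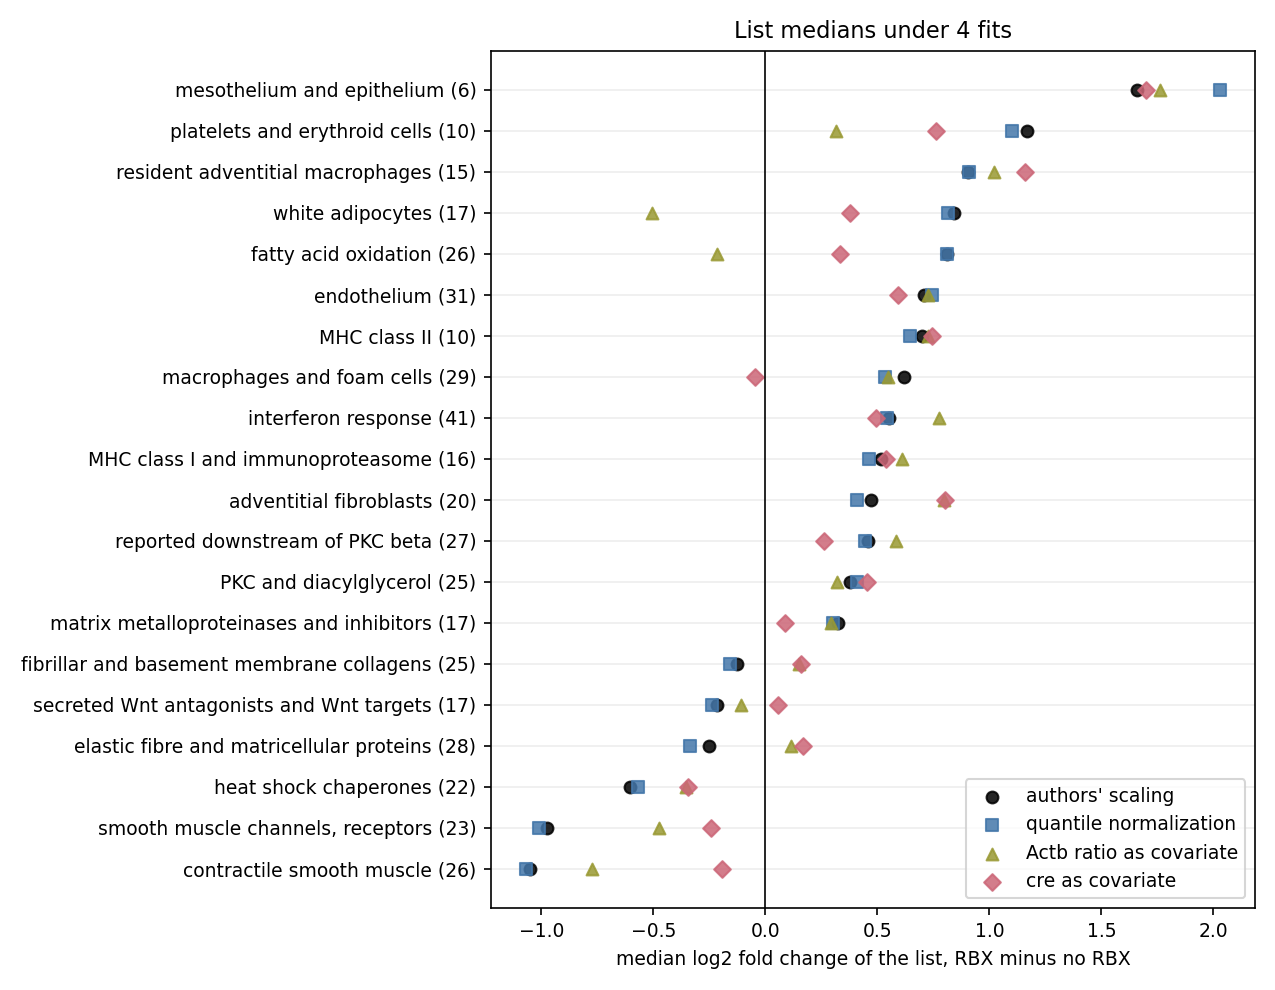
Median log2 fold change (RBX minus no RBX) of the same 20 lists under 4 fits. Under the authors' scaling and under quantile normalization the points nearly coincide, while cre as a covariate moves the contractile median from -1.05 to -0.20 and the Actb ratio moves the adipocyte median from 0.84 to -0.51.

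The same drug comparison in the diabetic mice called 5 genes out of 11036 (0.0453%). Of the 3493 genes called in non-diabetic mice, 59.7% had the same sign in diabetic mice, with a median size there of 0.134 against 0.624. The difference between the drug effects, diabetic minus non-diabetic, passed for 1273 genes (11.5%), 666 above 0 (6.03%) and 607 below (5.50%). In 1223 of them the effect was the larger in non-diabetic mice. This difference contains the non-diabetic effect with its sign turned, so the 1208 genes called in both are not independent support for it. With cre as a covariate 0 genes passed for the difference (limma, 1391 at an unadjusted p under 0.05), and with the Actb ratio 341. The cre signal differed by 1.18 between the non-diabetic groups and lay from 17.67 to 18.17 over all diabetic mice.

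For single genes the difference ran against the non-diabetic effect. Sost was -2.52 in non-diabetic and 0.54 in diabetic mice, a difference of 3.06 (SE 0.41, adjusted p = 0.00028). Npnt was -2.36 and 0.40, a difference of 2.76 (SE 0.41, adjusted p = 0.000567). Ptprz1, a receptor phosphatase, was -1.88 and 0.87, a difference of 2.76 (SE 0.40, adjusted p = 0.000515). In these 3 genes the value in diabetic mice was above 0. On the other side F10 was 2.01 and -0.47 (difference -2.48 (SE 0.47, adjusted p = 0.00296)), Chil3 1.88 and -0.50 (difference -2.37 (SE 0.46, adjusted p = 0.00325)) and Kif26a 2.99 and -0.47 (difference -3.46 (SE 0.93, adjusted p = 0.0229)). Apoe passed for the difference, -2.54 (SE 0.78, adjusted p = 0.0418), though not within non-diabetic mice. Igsf9, a cell adhesion gene, measured 797, 1078, 374 and 844 without and 400.5, 38.5, 243 and 34.6 with RBX in the non-diabetic mice (log2 fold change -2.76, SE 0.60, adjusted p = 0.00221), 2 treated mice being far below the other 2, and was 0.21 with the Actb ratio as a covariate.

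Over all genes 11.5% passed for the difference, 6.03% above 0 and 5.50% below. The difference contains the non-diabetic effect with its sign turned, so counts by list are not independent of that effect. By list, 21 of the 26 contractile genes passed for the difference, all above 0, and their median in diabetic mice was 0.22. Of the 31 endothelial genes 15 passed, all below 0 (diabetic median -0.04), and of the 41 interferon response genes 10 passed, all below 0 (diabetic median 0.01). Heat shock chaperones had a diabetic median of -0.24 with 4 falls there, and 7 genes passed for the difference, 6 of them above 0. Dnajb4 was -1.56 in non-diabetic and -0.60 in diabetic mice, and Hspa1b -1.23 and -1.60. Hspb1 ran the other way in diabetic mice, at -1.38 and 0.79, a difference of 2.18 (SE 0.27, adjusted p = 0.000205).

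Within the 8 diabetic arrays, where cre varied little, each gene's slope on log2 cre was set beside its RBX effect in non-diabetic mice. The slope was above 0 in 58.1% of the 1824 rises and below 0 in 58.4% of the 1669 falls, against 49.6% above 0 over all genes. Across the 11036 genes Pearson's r between slope and effect was 0.114, a description over genes that are not independent replicates. With cre as a covariate 50 of the 104 named genes called were smaller in size by over 1.5 times or turned sign, 3 were larger by over 1.5 times and 51 lay between. Of the 104, 101 kept their call without each of the 8 arrays, 97 in every fit without a covariate, and 20 with the Actb ratio as well. Those 20 were Retnla, Htr1b, Mylk4, Ldb3, Wif1, Psmb8, H2-Aa, H2-Ab1, Pi16, Vcl, Tnc, Nos3, Dnajb4, Iigp1, Mmp23, Krt18, Pf4, Plcb4, F13a1 and Frzb.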

How the data were processed

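Whole aorta was measured on 1 Affymetrix array per mouse. The deposited values were linear signal intensity that the authors had made with MAS5, per the submitters' processing notes (version not given in the sources used here). They cover 45101 probe sets, and a mean trimmed by 2% at each end was near 1499 on every array, so the authors had scaled the intensity of each array by 1 factor.

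Probe sets with 1 gene symbol (34945) were named from GEO's platform annotation, 932 with several and 9160 with none were not, and 64 Affymetrix controls were left out. Of those with 1 symbol, 99.4% were listed by RefSeq (GRCm38.p6). The log2 of each value was used as it stands. Probe sets with a mean above the median of all (signal 383) were kept, and the brightest per gene was used, leaving 11036 genes. Groups came from the titles.

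R 4.3.3 was used, and limma 3.58.1 was fitted to all 16 arrays with 1 mean a group, an intensity trend, 12 residual and 6.2 prior degrees of freedom. Two-sided p-values had Benjamini-Hochberg adjustment over all genes. Array measures had exact permutation tests. The fit was tested on simulated data. Alternatives were the cre and Actb covariates, quantile normalization, arrays aligned at their 75th percentile, a filter at the 70th percentile or none, 30.5 added before log2, averaged probe sets, eBayes without trend or robust, weights per array, replicate numbers as a block, the fit on 8 arrays, and each of the 8 arrays left out.

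The gene lists and the rule for named genes were chosen with earlier results of these data known. Named are Prkcb and Apoe, the 15 largest rises and 15 largest falls whose groups do not overlap, up to 4 members of smallest p in each of the 20 lists described, and the 5 largest differences of each sign from the diabetic mice. A further 10 were to be genes called with quantile normalization, cre as a covariate and each array left out, but 0 met that. Genes with clone, predicted or EST symbols were only counted. Of the 106 genes, 51 had other measured probe sets, 80 in all, of which 74 had the same sign.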

Additional observations from a re-analysis of the deposited data

Results flagged for a closer look

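The effect of RBX in diabetic minus that in non-diabetic mice passed limma for 81 of the 106 genes named. Over all genes 11.5% passed, and 0 with cre as a covariate. Most of the named genes were picked for their effect in non-diabetic mice, and some for this difference. The difference contains that effect with its sign turned, so these shares cannot be compared. It is given here on the log2 scale, n = 4 mice in each of the 4 groups. Among the contractile and channel genes it was 1.99 for Rgs4, 2.65 for Ldb3, 1.29 for Vcl, 1.27 for Csrp1, 1.75 for Cnn1, 1.72 for Gucy1b1, 1.69 for Gucy1a1 and 0.81 for Atp2a2. Among matrix and protease genes it was 1.57 for Ltbp1, 1.34 for Vcan, 1.10 for Postn, 1.11 for Tnc, 1.09 for Lox, 1.06 for Col18a1, -0.59 for Mmp23, 1.13 for Adamts1, -0.49 for Timp2 and -1.27 for Mmp12. Among Wnt antagonists it was 3.06 for Sost and 1.84 for Wif1. Among genes of protein kinase C signalling and those reported downstream of protein kinase C beta it was 1.82 for Nox4, -1.02 for Icam1, -0.95 for Nos3, 1.38 for Plcb4, 0.82 for Plcb1 and -0.92 for Prkch. Among endothelial genes it was -1.08 for Egfl7, -1.16 for Eng, -1.02 for Ecscr and -1.44 for Emcn. Among genes of the interferon response it was -0.96 for Iigp1, -0.75 for Ifih1, -0.90 for Parp14 and -0.44 for Ifi35. Among antigen presentation genes it was -1.16 for Psmb8, -0.86 for Psmb9, -0.72 for Psmb10, -0.48 for Tapbp, -0.66 for H2-Aa and -0.90 for H2-Ab1. Among macrophage genes it was -2.37 for Chil3, -0.64 for Csf1r, -1.15 for Spi1, -1.06 for Ncf4, -1.59 for Cd36 and -1.18 for Pf4. Among fibroblast and mesothelial genes it was -2.20 for Lrrn4, -0.88 for Pi16, -0.65 for Gsn and -0.88 for Igfbp6. Among fat and fatty acid oxidation genes it was -0.95 for Acot2, -1.26 for Etfb, -0.92 for Acads, -1.15 for Angptl4, -0.99 for Cebpa, -0.94 for Lpl, -1.27 for Fabp4 and -1.05 for Pnpla2. Among heat shock chaperones it was 0.96 for Dnajb4 and 2.18 for Hspb1. Other named genes below 0 were Apoe at -2.54, Kif26a at -3.46, Dnajc17 at -1.62, F10 at -2.48, Fxyd3 at -2.14, Depp1 at -2.02, Ear3 at -2.54 and Rbp7 at -2.31. Other named genes above 0 were Cacnb2 at 2.67, Htr1b at 2.13, Mylk4 at 2.54, Sphkap at 2.57, Efhd1 at 2.60, Npnt at 2.76, Chmp4c at 2.30, Akap6 at 2.45, Krtap12-1 at 2.71, Scube3 at 2.09, Kcnj15 at 1.82, Igsf9 at 3.47 and Ptprz1 at 2.76.

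In some genes 1 of the 4 mice of a group lay apart, the share of the group's whole range taken by the gap to its nearest neighbour being above the 95% critical value of Dixon's test for 4 values. Chance alone does this in about 1 in 20 groups. Mouse 2 without RBX stood apart for Zdhhc12 (highest, signal 483, share 0.877) and Psmb10 (highest, signal 3346, share 0.842). Mouse 3 without RBX stood apart for Sost (lowest, signal 7696, share 0.975), Efhd1 (lowest, signal 10059.5, share 0.874), Scube3 (lowest, signal 2003, share 0.918), Cnn1 (lowest, signal 28345, share 0.895), Etfb (highest, signal 9287, share 0.89) and P4ha2 (lowest, signal 2867, share 0.901). Mouse 4 without RBX stood apart for Vcan (highest, signal 13012, share 0.918) and Acads (lowest, signal 1821, share 0.878). Mouse 1 with RBX stood apart for Hspa1b (lowest, signal 5336, share 0.898). Mouse 2 with RBX stood apart for Nos3 (lowest, signal 6177, share 0.873). Mouse 4 with RBX stood apart for Dnajc17 (highest, signal 17097, share 0.939) and Akap6 (lowest, signal 103, share 0.845). Mouse 4 with RBX was also the highest of its group on the first principal component, with a share of 0.87. The cause of these was not tested.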

How the results depend on the processing

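The counts of genes kept their direction and lay within 1.5 times the main value with quantile normalization, with arrays aligned at the 75th percentile, with no filter or a stricter one, an offset before log2, the mean over probe sets, another variance model, array weights and only the 8 arrays. They did not with a covariate. With log2 cre there were 0 rises, 0 falls and 0 genes whose effect differed from that in diabetic mice, and the same 0 with quantile normalization and cre together. With the Actb ratio there were 86, 88 and 341. Leaving out each array in turn gave 1348 to 1802 rises, 1313 to 1690 falls and 872 to 1499 differences.

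Replicate numbers did not pair the mice (correlations of same-numbered mice from -0.039 to 0.053), and a replicate block gave 1834 rises, 1682 falls and 1382 differences.

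Single genes turned sign as follows. With cre Depp1 was -0.33, Akap6 0.58 and Lpl -0.0746, and with quantile normalization and cre they were -0.30, 0.68 and -0.0038. With the Actb ratio Acsm3 was -0.19, Depp1 -0.39, Igsf9 0.21, Itga2b -0.0035, Fabp4 -0.38 and Pnpla2 -0.21. As the mean of its probe sets Tapbp was -0.0605. The cause was not tested in any of them. Of 43 list medians, 32 moved by more than the spread between mice with cre and 24 with the Actb ratio, against 1 with quantile normalization. With 4 mice a group and controls that follow the groups, these covariate fits have about 2 times the SE of the main one, and detection calls were not used here, so dim genes have no bound.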

Other observations

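Other gene groups were counted in the same way, beside 16.5% of all genes rising and 15.1% falling. Cytosolic ribosomal proteins rose in 29 of 36 cases with none lower (median 0.44), but after quantile normalization 9 rose and 1 fell (median 0.11). Centring each array on its 75th percentile instead left the median at 0.45. Oxidative phosphorylation genes rose in 20 of 46 cases and fell in 1 (median 0.28), and the median was -0.01 with cre and -0.27 with the Actb ratio as a covariate. Lysosomal genes rose in 10 of 27 cases, and in 4 after quantile normalization with 1 fall. Complement and coagulation genes rose in 11 of 27 cases and fell in 1 (median 0.41, 0.56 with cre). Cholesterol storage and efflux genes rose in 8 of 16 (median 0.48, -0.03 with cre), and synthesis of fatty acids and triglycerides in 6 of 21, with no falls in either.

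Several groups showed no shared direction. TGF-beta and BMP signalling had 7 rises and 7 falls among 28 genes, insulin signalling and glucose uptake 8 and 5 among 28, antioxidant and oxidase genes 7 and 5 among 27, glycolysis 3 and 3 among 17, cholesterol synthesis 2 and 2 among 19, and immediate early genes 3 and 3 among 27. The unfolded protein response had 4 rises and 2 falls among 27, cell division 2 rises among 27, the circadian clock 1 rise and 2 falls among 15, and chemokines and their receptors 3 rises among 24. Markers of other cells passed the signal filter in unequal shares, namely 7 of 19 on the array for T and natural killer cells (2 rose), 4 of 13 for B and plasma cells (1 fell), 7 of 17 for neutrophils and mast cells (4 rose), 6 of 7 for lymphatic endothelium (3 rose, 1 fell), 8 of 13 for nerve and Schwann cells (2 rose), 13 of 14 for brown adipocytes (4 rose, 1 fell), and 4 of 26 for cardiac and skeletal muscle, of which the calcium release channel Ryr2 fell by 1.93.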
